A study of Homo sapiens with 16 samples.

Results

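Reads on 7 genes of the growth factor signalling route that runs through SRC, RAS, RAF and ERK were followed in glioblastoma cells given a miR-137 mimic. The genes were SOS1, NF1, NRAS, HRAS, BRAF, MAPK3 and SRC, which were picked by name among the 20314 genes counted in U251 cells and the 20626 counted in U343 cells. Each of them had 1 line in every table, with the same position in both cell lines. U251 and U343 are established human glioblastoma lines. In each line, cells were transfected with the miR-137 mimic or with a negative control (NC) mimic at a final concentration of 25 nM and collected after 48 hours, so the cells of every group had received a transfection reagent and a small RNA. RNASeq measured total RNA after depletion of ribosomal RNA. RIPSeq measured the RNA recovered with antibodies to the poly(A) binding protein PABP, which holds the tail of messenger RNAs. The question was which transcripts lose abundance or PABP binding when miR-137 is raised. Each combination of line, assay and transfection had 2 libraries, 16 in all. The labels do not say that the 2 libraries of a group came from separate cultures, so p-values measure the spread between libraries, which may be technical.

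SOS1 is the exchange factor that loads RAS proteins with GTP, and NF1 (neurofibromin) is a GTPase-activating protein that returns them to the inactive state. NRAS and HRAS are RAS family GTPases, the switches of the route. Active RAS recruits RAF kinases such as BRAF, which act through the MEK kinases on ERK, and MAPK3 encodes ERK1. SRC is a tyrosine kinase at the membrane that feeds into the same route. In glioblastoma the pathway is often driven by receptor tyrosine kinases, and loss of NF1 is a known event in these tumours.

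The reference sequence of the microRNA is shown because its seed, the stretch that pairs with target transcripts, defines the agent that was added. It was taken from RefSeq, where it lies on the minus strand of chr1:98046091-98046113 in GRCh38.p14, and capitals mark the seed, bases 2 to 8.
hsa-miR-137-3p: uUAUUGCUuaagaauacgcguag
A transcript site that pairs with this seed reads AGCAAUA. The sequence of the commercial mimic was not given in the sources used here, and the 3′ untranslated regions of the 7 genes were not analysed here, so no seed sites were sought in them.

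Depth was 10156675 to 18224061 counted reads per library in U251 RNASeq and 22359794 to 30731476 in U251 RIPSeq. The U343 libraries were deeper, with 37952273 to 45134766 reads in RNASeq and 37736206 to 45055184 in RIPSeq. Within these totals the 7 genes had between 59 and 13618 reads in a library. The glial and mesenchymal markers fixed to check the lines were detected at 1 CPM or more in both libraries of a group for 6 or 7 of 8 genes in U251 and for all 8 in U343, with VIM (vimentin) the highest. The astrocyte marker GFAP stood at 31.1 and 32.8 CPM in the U251 RNASeq controls and at 4487 and 4708 CPM in those of U343. Of 10 markers of other cell types 9 were in the tables, and they summed to at most 37.0 CPM in any library, with SYT1 highest in U251 and MBP in U343, and CD3E was at 0 in the U251 RNASeq controls. In U251 only, the sum of the line markers was lower with miR-137. It was 12967 to 17122 CPM in the controls and 7018 to 8742 CPM in the miR-137 libraries. Of the 7 markers tested in U251 RNASeq, 6 fell in edgeR at an adjusted p under 0.05. TNC rose there, from 919 and 753 CPM to 1515 and 1034 CPM, and was lower with miR-137 in U251 RIPSeq. The part of these changes in the values of the 7 genes was not tested. Because these are bulk samples, fewer cells of a type and less RNA per cell cannot be told apart.

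Libraries of 2 groups stood apart, and they touch the results below. The U251 RIPSeq controls were unlike each other: comparing the reads of the pair gene by gene, the chi-square averaged 216, against 2.46 to 21.9 in 6 of the other pairs and 175 in the U343 RNASeq miR-137 pair, and counting error alone gives about 1. In the 7 genes, the second of these controls was higher for NRAS, NF1, SOS1 and BRAF and lower for HRAS and SRC, by up to 3.38 times. In the U343 RNASeq miR-137 pair it was replicate 1 that stood apart. A list of 12 interferon response genes summed to 111 to 172 CPM in all 8 control libraries and to 10457 to 11926 CPM in 7 of the 8 miR-137 libraries, but to 119 CPM in this replicate. Its level for this list was that of a control, and its partner, replicate 2, was at 11926 CPM. Values without these libraries are therefore given where they matter. When an arm is left with 1 library, the test assumes that it varies like the other arm.

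Levels are in CPM, a gene's reads relative to the total of its library, after scaling with edgeR's TMM factors in each experiment. Fold changes and adjusted p-values come from the quasi-likelihood test of edgeR, fitted to all genes that its low-count filter kept. A gene passed at an adjusted p under 0.05, and values after ± are standard errors (2 libraries against 2). In U251 RNASeq 3 of the 7 genes passed it, where 57.7% of 13052 genes did: NRAS and HRAS fell (29.0% of all genes were called lower) and NF1 rose (28.7% were called higher). Over all genes, 3780 were lower and 3749 higher, and upper-quartile normalization moved that split to 3001 and 4588. In U251 RIPSeq 0 of 7 passed, against 1.21% of 14087 genes, and 1 of them, SRC, had an unadjusted p under 0.05. That result hung on the controls: without control replicate 1, 68.1% of all genes and 6 of the 7 passed, and without control replicate 2, 74.4% and 7 of 7. The spread then came from the miR-137 pair alone, whose libraries differed in the 7 genes by at most 1.26 times. In U343 RNASeq SRC fell and MAPK3 rose, 2 of 7 against 20.0% of 15088 genes, with 11.7% lower and 8.31% higher. Without miR-137 replicate 1, 5 of 7 passed against 39.6% of genes, and without replicate 2, 4 of 7 against 37.7%. In U343 RIPSeq BRAF fell and NF1 rose, 2 of 7 against 56.3% of 14866, with 27.8% lower and 28.5% higher. None of these shares with all libraries was well above the background of its experiment, so the genes are described one by one.

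**Figure D1:**
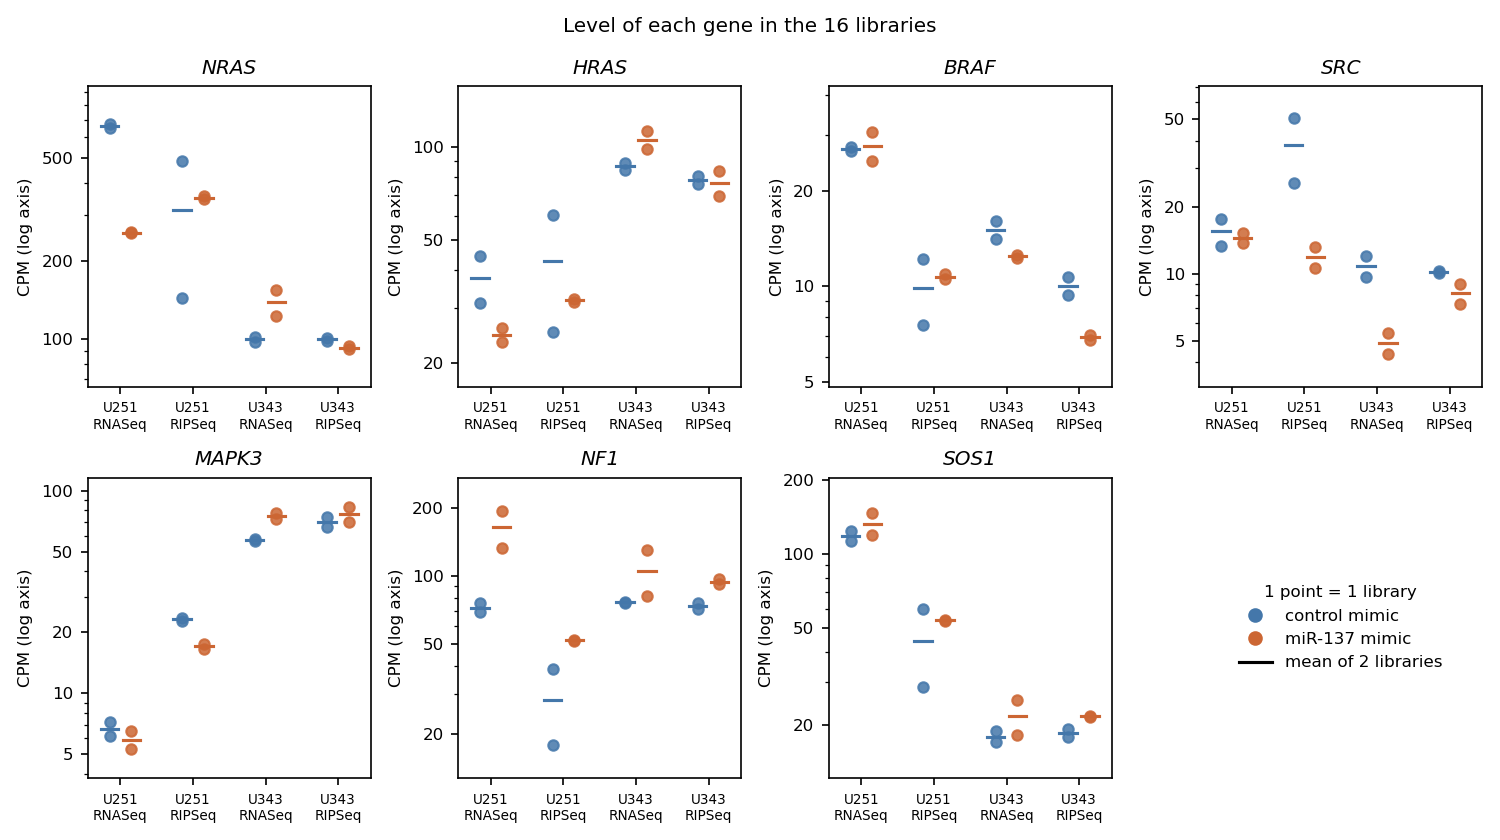
Level of each of the 7 genes in the 16 libraries, in CPM on a log axis that differs between panels. Each point is 1 library, blue for the control and orange for the miR-137 mimic, and the short line is the mean of 2 libraries. NRAS in U251 RNASeq lies near 665 CPM in the controls and near 257 CPM with miR-137, while in U343 RNASeq it lies higher with miR-137 than without.

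**Figure D2:**
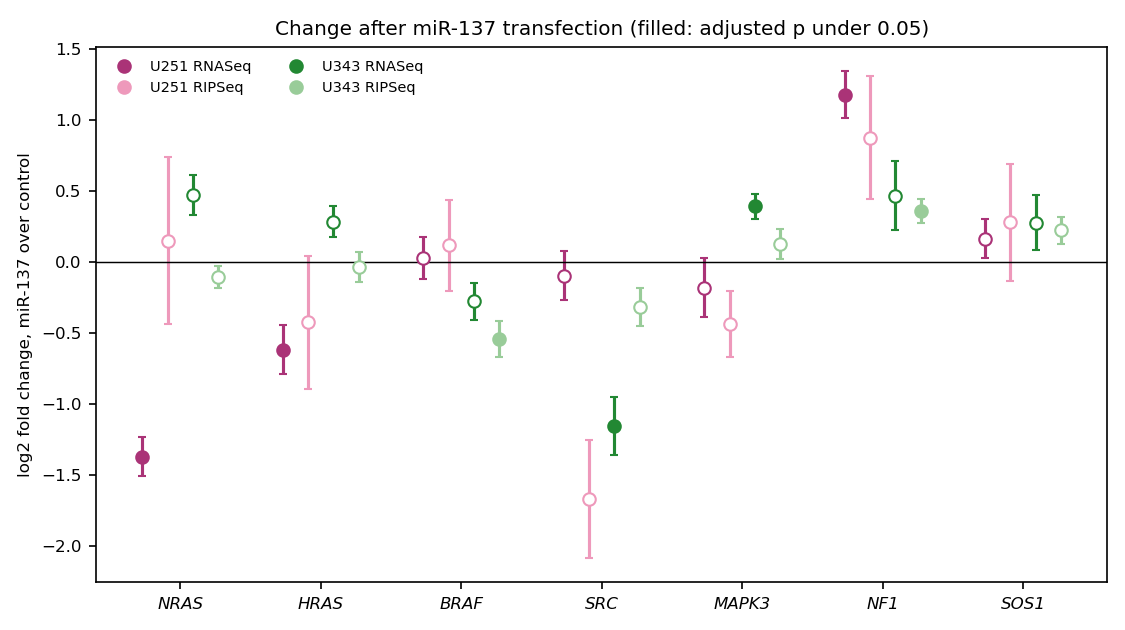
Log2 fold change of miR-137 over control for each gene in the 4 experiments, with the standard error from edgeR (2 libraries against 2). Filled symbols passed an adjusted p under 0.05. NF1 is above 0 in all 4 experiments, and NRAS is lowest in U251 RNASeq, at -1.37.

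SOS1 (chr2:39062194-39201108, minus strand, hg18), the exchange factor, passed the threshold in none of the 4 experiments. In U251 RNASeq it had 114 and 124 CPM in the controls and 147 and 120 CPM with miR-137, and the groups overlapped. The log2 fold change was 0.17 ± 0.14 (adjusted p = 0.314). In U251 RIPSeq the controls, at 28.8 and 59.5 CPM, enclosed the miR-137 libraries, at 53.4 and 53.9 CPM (0.28 ± 0.41, adjusted p = 0.751). The difference was -0.15 without control replicate 1 and 0.99 without control replicate 2. U343 RIPSeq had 19.4 and 17.9 CPM without and 21.7 and 21.8 CPM with miR-137, which did not overlap, and the difference of 0.22 ± 0.09 missed the threshold (adjusted p = 0.0768). In U343 RNASeq the controls stood at 18.9 and 17.0 CPM and the miR-137 libraries at 18.3 and 25.3 CPM, which overlapped (0.28 ± 0.19, adjusted p = 0.363). The higher of these was replicate 2. Without replicate 1, the one at the control level of interferon response genes, SOS1 was higher by 0.49 ± 0.11 (adjusted p = 0.0182), and without replicate 2 the difference was 0.02 ± 0.12 (adjusted p = 0.913).

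NF1 (chr17:26446121-26728821, plus strand, hg18), the brake on RAS, was higher with miR-137 in every comparison of libraries within an experiment. The share of all genes that separate in this way was not computed. In U251, 89.5% of tested genes in RNASeq and 88.8% in RIPSeq had a log2 fold change as low or lower. In U343 these shares were 79.9% in RNASeq and 71.2% in RIPSeq. In U251 RNASeq NF1 rose from 75.5 and 68.9 CPM to 194 and 133 CPM. The groups were far apart, although the miR-137 libraries differed by 1.46 times. The log2 fold change was 1.18 ± 0.17 (adjusted p = 4.6e-05) and passed the threshold in each of 4 fits that left out a library. In U251 RIPSeq NF1 had 17.7 and 38.6 CPM in the controls and 52.1 and 51.3 CPM with miR-137. These groups did not overlap either, but with the spread of the controls the difference of 0.88 ± 0.43 did not pass (adjusted p = 0.348). Left with either control alone it did, at 0.42 without control replicate 1 and 1.63 without control replicate 2. In U343 RIPSeq NF1 rose from 75.5 and 70.9 CPM to 96.5 and 91.5 CPM, by 0.36 ± 0.08 (adjusted p = 0.00699). That call was lost without control replicate 2 (0.31, adjusted p = 0.0624) and in a fit of all 8 U343 libraries (adjusted p = 0.201).

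The U343 RNASeq libraries gave NF1 a different picture. The controls stood at 76.6 and 75.7 CPM, replicate 1 with miR-137 at 80.9 CPM and replicate 2 at 130 CPM. Replicate 1 was thus close to the controls and replicate 2 well above them, and the difference over both was 0.47 ± 0.24 (adjusted p = 0.238). Without replicate 1 it was 0.76 ± 0.08 (adjusted p = 0.000966), and without replicate 2 it was 0.09 ± 0.08 (adjusted p = 0.451). The summed interferon response genes were at 119 CPM in replicate 1 and 11926 CPM in replicate 2, so NF1 and SOS1 were higher in the library where these genes were high. The part of the interferon response in either difference was not tested.

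Reads on NF1 may include reads from other loci. Its span of 282701 bases contains OMG, EVI2B and EVI2A on the opposite strand, over 2712, 10343 and 5340 bases, and RefSeq lists 12 NF1 pseudogenes by symbol. How reads with several possible positions were counted is not given in the sources used here. The overlaps are between listed spans, whereas reads were counted on merged RefSeq transcripts. Whether the counted sequences of these genes overlap was not checked. The sources do not say whether counting used strand, without which reads on sequence shared by genes on opposite strands cannot be told apart. In U251 RNASeq all 3 genes within the span rose with it: OMG by 1.12 ± 0.24 (adjusted p = 0.00116), EVI2B by 1.73 ± 0.20 (adjusted p = 9.53e-06) and EVI2A by 1.26 ± 0.21 (adjusted p = 0.000218). Their levels were far below that of NF1, with EVI2A at 5.999 and 4.28 CPM in the controls and 10.9 and 13.7 CPM with miR-137. EVI2B also rose in U251 RIPSeq, from 1.24 and 1.47 CPM to 8.15 and 9.89 CPM (2.73 ± 0.28, adjusted p = 0.0377). In U343 EVI2A instead fell, by 1.35 in RNASeq (adjusted p = 0.0199) and by 1.34 in RIPSeq (adjusted p = 0.0247), and OMG and EVI2B had at most 17 reads in any library.

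**Figure D3:**
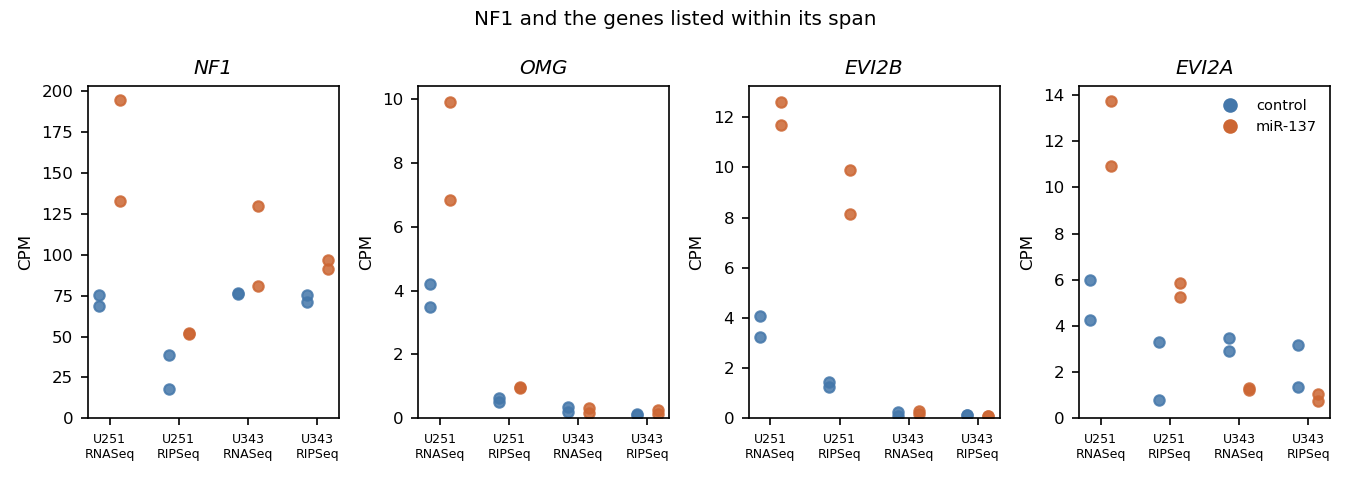
CPM of NF1 and of the 3 genes listed within its span, by experiment, with 1 point per library (blue for control, orange for miR-137) and axes that start at 0. In U251 RNASeq the miR-137 libraries lie above the controls for all 4 genes. In U343 EVI2A lies lower with miR-137 while NF1 does not.

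NRAS (chr1:115048601-115061038, minus strand, hg18) gave the largest change of the 7 genes in total RNA, and its response differed between the lines. In U251 RNASeq it had 654 and 676 CPM in the controls and 258 and 256 CPM with miR-137. Replicates agreed within 1.03 times, and the groups lay far apart. The fall was 1.37 ± 0.14 on the log2 scale, or 2.59-fold (adjusted p = 2.1e-06), and 4.38% of the tested genes had a log2 fold change as low or lower. The call was kept in each fit without 1 library and was lost only when the RIPSeq libraries were fitted together with these (adjusted p = 0.0716). In U343 RNASeq NRAS had 102 and 97.3 CPM in the controls and 154 and 123 CPM with miR-137. Both miR-137 libraries were above both controls, but the difference of 0.47 ± 0.14 missed the threshold (adjusted p = 0.0862). It passed without replicate 1 (0.29, adjusted p = 0.0399) and without replicate 2 (0.63, adjusted p = 0.00312), and it passed in DESeq2 (adjusted p = 0.0293).

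In PABP-bound RNA NRAS passed in neither line. The RIPSeq controls had 144 and 487 CPM, and the miR-137 libraries, at 355 and 346 CPM, lay between them. The difference of 0.15 ± 0.59 (adjusted p = 0.913) changed sign with the control used: it was -0.48 without control replicate 1 but 1.37 without control replicate 2. Both of these passed. In U343 RIPSeq NRAS had 101 and 97.9 CPM in the controls and 93.5 and 91.3 CPM with miR-137. These did not overlap, yet the log2 fold change was only -0.11 ± 0.08 (adjusted p = 0.285).

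HRAS (chr11:522242-525550, minus strand, hg18) also fell in U251 total RNA. It had 31.2 and 44.3 CPM in the controls and 23.4 and 25.9 CPM with miR-137. All miR-137 values were below both controls, which differed by 1.42 times. The fall was 0.62 ± 0.17 on the log2 scale (adjusted p = 0.00735). It did not pass without control replicate 2 (-0.35, adjusted p = 0.126), nor with no filter on low counts (adjusted p = 0.0530), nor in the fit of all 8 U251 libraries (adjusted p = 0.313). In U343 RNASeq HRAS had 84.5 and 89.3 CPM without and 113 and 98.6 CPM with miR-137, a difference of 0.28 ± 0.11 (adjusted p = 0.145). That passed without miR-137 replicate 2 (0.38, adjusted p = 0.0186) and not without replicate 1 (0.18, adjusted p = 0.165). In RIPSeq the groups overlapped in both lines: the log2 fold changes were -0.43 ± 0.47 in U251 and -0.03 ± 0.10 in U343. The U251 libraries had 60.4 and 25.2 CPM without and 32.2 and 31.5 CPM with miR-137, and the U343 libraries 75.9 and 81.0 CPM without and 83.5 and 69.7 CPM with it. In U251 the sign turned with the control left out, from 0.33 without control replicate 1 to -0.83 without control replicate 2.

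BRAF (chr7:140080282-140271033, minus strand, hg18) fell in PABP-bound RNA of U343. It had 10.7 and 9.37 CPM in the controls and 6.76 and 7.04 CPM with miR-137, without overlap. The fall was 0.54 ± 0.13 on the log2 scale (adjusted p = 0.00763), and it just missed the threshold without control replicate 1 (adjusted p = 0.0594). U343 RNASeq showed 16.1 and 14.1 CPM in the controls and 12.3 and 12.5 CPM with miR-137, also without overlap, and the difference of -0.28 ± 0.13 did not pass (adjusted p = 0.209). In U251 the groups overlapped in both assays, at 26.7 and 27.4 against 30.5 and 24.7 CPM in RNASeq (0.03 ± 0.15) and at 7.54 and 12.2 against 10.9 and 10.5 CPM in RIPSeq (0.12 ± 0.32). The latter difference was -0.19 without control replicate 1 and 0.60 without control replicate 2, where it passed. RefSeq lists 1 BRAF pseudogene, BRAFP1, whose reads may have been counted on BRAF.

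MAPK3 (chr16:30032927-30042131, minus strand, hg18), the gene of ERK1, rose in U343 total RNA. It had 57.7 and 56.3 CPM in the controls and 77.3 and 72.5 CPM with miR-137. The groups did not overlap, and each differed within itself by at most 1.07 times. The rise was 0.39 ± 0.09 (adjusted p = 0.0449), and it did not pass without either control library (adjusted p = 0.309 and 0.345) or with no filter on low counts (adjusted p = 0.0752). Without replicate 1 of miR-137 it was 0.34 (adjusted p = 0.0204). In U343 RIPSeq the values were 66.6 and 73.9 CPM without and 83.1 and 70.4 CPM with miR-137, which overlapped (0.13 ± 0.11). U251 RNASeq had few reads on MAPK3, 59 to 113 per library, with 7.21 and 6.17 CPM in the controls and 5.32 and 6.47 CPM with miR-137 (-0.18 ± 0.21). In U251 RIPSeq the controls, at 23.7 and 22.7 CPM, lay above the miR-137 libraries, at 16.6 and 17.6 CPM, and the difference of -0.44 ± 0.23 did not pass (adjusted p = 0.383). It passed without control replicate 1 (-0.41) and without control replicate 2 (-0.38). The listed span of MAPK3 shares 394 bases with LOC100271831 on the other strand. LOC100271831 had 0 reads in every U251 library and 205 to 325 in those of U343. The U251 data give 1 strand symbol for all genes, so the strands given here are those of U343. Whether counting at this locus differed between the lines was not tested.

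SRC (chr20:35406502-35467235, plus strand, hg18) fell in U343 total RNA. In U343 RNASeq it had 12.04 and 9.74 CPM in the controls and 5.44 and 4.34 CPM with miR-137, with no overlap. It fell by 1.16 ± 0.20 on the log2 scale, 2.23-fold (adjusted p = 0.0277). The fall was 1.34 without miR-137 replicate 1 (adjusted p = 0.00277) and 1.00 without replicate 2 (adjusted p = 0.00865), so it was present in both libraries. Without either control library the call was lost (adjusted p = 0.237 and 0.200), and in those fits 0 genes passed in edgeR, with 2776 and 2675 at an unadjusted p under 0.05. In U251 RIPSeq the controls stood at 50.4 and 25.8 CPM and the miR-137 libraries at 10.6 and 13.3 CPM. The lowest control was well above both, and the log2 fold change of -1.67 ± 0.42 was among the lowest 1.90% of genes, but it did not pass edgeR's threshold (adjusted p = 0.143). DESeq2 called it (adjusted p = 0.00490), as did the fit of all 8 U251 libraries (adjusted p = 0.0148). It was -1.11 without control replicate 1 and -1.98 without control replicate 2, so its direction did not rest on 1 control.

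Total SRC in U251 did not pass. The controls had 17.7 and 13.4 CPM and the miR-137 libraries 15.3 and 13.8 CPM, which overlapped (-0.10 ± 0.17, adjusted p = 0.660). In U343 RIPSeq SRC had 10.1 and 10.3 CPM without and 7.35 and 9.06 CPM with miR-137. These did not overlap, and the difference of -0.32 ± 0.13 did not pass (adjusted p = 0.0803). It was -0.48 without miR-137 replicate 2 (adjusted p = 0.0350).

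Whether PABP-bound RNA responded differently from total RNA was tested as an interaction of transfection with assay. In U251, 0 of 7 genes passed in edgeR, where 0.134% of 14210 genes did, and 2 had an unadjusted p under 0.05. NRAS was higher in RIPSeq relative to RNASeq by 1.49 ± 0.64 (adjusted p = 0.261) and SRC lower by 1.63 ± 0.48 (adjusted p = 0.163). The other 5 lay between -0.34 ± 0.49 for NF1 and 0.13 ± 0.56 for HRAS, with MAPK3 at -0.30 ± 0.28, BRAF at 0.05 ± 0.35 and SOS1 at 0.08 ± 0.44. Without U251 RIPSeq control replicate 1, NRAS was at 0.95, SRC at -0.96, HRAS at 1.01, BRAF at -0.16 and SOS1 at -0.26. MAPK3 was then at -0.17 and NF1 at -0.70. Without control replicate 2, NRAS was at 2.69, SRC at -1.95 and MAPK3 at -0.26. HRAS (-0.27), BRAF (0.51), SOS1 (0.76) and NF1 (0.40) then had the opposite sign. In U343, 0 of 7 passed against 0.00649% of 15413 genes, and the same pair of genes had an unadjusted p under 0.05, with the signs turned: NRAS was at -0.58 ± 0.16 (adjusted p = 0.196) and SRC at 0.84 ± 0.25 (adjusted p = 0.205). The other 5 lay between -0.32 ± 0.16 for HRAS and -0.05 ± 0.23 for SOS1, with MAPK3 at -0.26 ± 0.15, BRAF at -0.26 ± 0.18 and NF1 at -0.11 ± 0.28. Without miR-137 replicate 2 of U343 RNASeq, 3113 genes passed and NRAS was among them (-0.76, adjusted p = 0.00308). Without replicate 1 it did not pass (-0.40, adjusted p = 0.143).

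The difference between the lines was tested the same way. In RNASeq 3 of 7 genes passed, where 25.2% of 15550 genes did, 12.7% lower and 12.5% higher in U343. The response of NRAS was higher in U343 than in U251 by 1.84 ± 0.19 on the log2 scale (adjusted p = 0.00111), and that of HRAS by 0.90 ± 0.24 (adjusted p = 0.0295). For SRC the U343 response was lower by 1.07 ± 0.30 (adjusted p = 0.0316). NRAS passed in each of 8 fits that left out a library, whereas HRAS and SRC did not in 5 of 8, those without U251 control replicate 2, either U251 miR-137 library or either U343 control (adjusted p up to 0.0894 for HRAS and 0.154 for SRC). MAPK3, at 0.57 ± 0.19, missed the threshold (adjusted p = 0.0624) and passed without U251 miR-137 replicate 2 (adjusted p = 0.0491) and without U343 miR-137 replicate 2 (adjusted p = 0.0431). NF1, at -0.72 ± 0.34 (adjusted p = 0.156), passed without U343 miR-137 replicate 2 (-1.10, adjusted p = 0.00256). BRAF, at -0.32 ± 0.21, and SOS1, at 0.10 ± 0.25, did not pass. In RIPSeq 0 of 7 passed against 3.28% of 15959 genes, and SRC, at 1.42 ± 0.48, was the highest in size (adjusted p = 0.150, and 0.0481 in DESeq2). MAPK3 was at 0.62 ± 0.25, BRAF at -0.61 ± 0.34, NF1 at -0.47 ± 0.44, HRAS at 0.46 ± 0.53, NRAS at -0.22 ± 0.64 and SOS1 at -0.0111 ± 0.43. Without U251 RIPSeq control replicate 1, SRC was at 0.82, MAPK3 at 0.57, NRAS at 0.40 and SOS1 at 0.40. HRAS was then at -0.34, BRAF at -0.33 and NF1 at -0.0315. Without control replicate 2, SRC was at 1.77, MAPK3 at 0.61, BRAF at -1.03 and NF1 at -1.17. NRAS (-1.37), SOS1 (-0.66) and HRAS (0.90) then had the opposite sign. The libraries of the lines were prepared with different kits, so line and preparation cannot be told apart.

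The same genes were then compared without miR-137, in the control libraries that the comparisons above also use. Total RNA of the control cells differed strongly between the lines, as did most genes: 6 of 7 passed, against 84.8% of 14787 genes (39.9% lower and 44.9% higher in U343). NRAS was lower in U343 by 2.69 ± 0.10 on the log2 scale and SOS1 by 2.67 ± 0.10, about 6.4-fold each. MAPK3 was higher in U343 by 3.14 ± 0.12, or 8.84-fold, and HRAS by 1.26 ± 0.15. BRAF was lower by 0.79 ± 0.12. SRC was lower by 0.46 ± 0.18 (adjusted p = 0.0344), a call lost with upper-quartile normalization (adjusted p = 0.0889) and without U251 control replicate 1 or U343 control replicate 2 (adjusted p = 0.205 and 0.185). NF1 did not pass (0.13 ± 0.09, adjusted p = 0.201), except with upper-quartile normalization (0.23, adjusted p = 0.0377). Upper-quartile normalization moved the median over all genes from 0.10 to 0.21. U251 cells thus had the higher NRAS and SOS1 levels, and U343 cells the higher HRAS and MAPK3 levels, in libraries that also differ in kit. LOC100271831, whose span overlaps that of MAPK3, had 0 reads in the U251 controls and 260 and 234 in those of U343. The part of counting at this locus in the MAPK3 difference was not tested.

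PABP-bound RNA was also set against total RNA in the control cells. In U343, where 48.6% of 14878 genes passed (24.2% lower and 24.4% higher in PABP-bound RNA), 2 of 7 did: MAPK3 was higher in PABP-bound RNA by 0.41 ± 0.08 (adjusted p = 0.00465) and BRAF lower by 0.48 ± 0.12 (adjusted p = 0.0133). The BRAF call was lost without RNASeq control replicate 1 or RIPSeq control replicate 2 (adjusted p = 0.0880 and 0.0737). The other 5 did not pass and lay between -0.04 ± 0.08 for HRAS and 0.16 ± 0.10 for SOS1, with NRAS at 0.11 ± 0.07, NF1 at 0.05 ± 0.07 and SRC at 0.01 ± 0.13. In U251, where 14.0% of 13242 genes passed (6.14% lower and 7.87% higher), MAPK3 alone of the 7 did, at 1.94 ± 0.31 (adjusted p = 0.0231). Its call was lost without either RNASeq control (adjusted p = 0.308 and 0.422) and with no filter on low counts (adjusted p = 0.0800). BRAF, at -1.31 ± 0.34, and SRC, at 1.45 ± 0.44, came close (adjusted p = 0.0508 and 0.0686). SOS1, at -1.29 ± 0.41, and NF1, at -1.22 ± 0.43, were next (adjusted p = 0.0772 and 0.0924). These 4 passed in DESeq2, which called 3615 of 13242 genes. Without RIPSeq control replicate 1, BRAF was at -1.03, SRC at 0.84, SOS1 at -0.88 and NF1 at -0.79. Without control replicate 2 they were at -1.74, 1.79, -1.94 and -1.92. NRAS, at -0.95 ± 0.54, did not pass (adjusted p = 0.243). It was at -0.33 without RIPSeq control replicate 1 and at -2.10 without control replicate 2. HRAS, at 0.35 ± 0.49 (adjusted p = 0.637), changed sign, from -0.46 without RIPSeq control replicate 1 to 0.78 without control replicate 2. The sign for MAPK3 and for BRAF was thus the same in both lines, with a call in both for MAPK3.

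**Figure D4:**
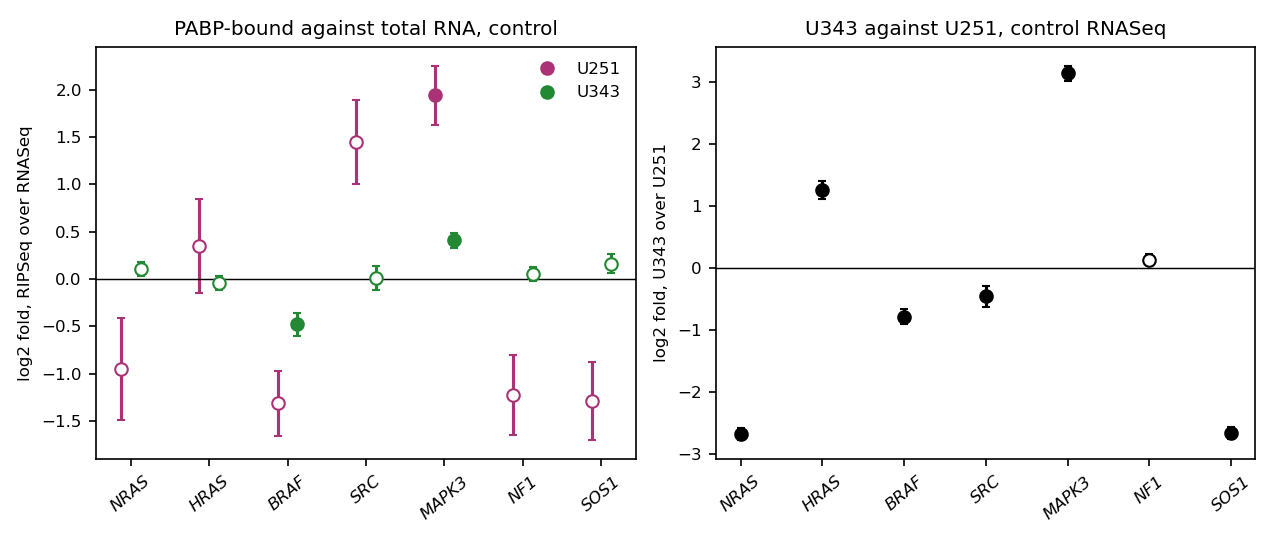
Log2 fold of PABP-bound over total RNA in control cells of each line (left) and of U343 over U251 in control total RNA (right), with the edgeR standard error (2 libraries against 2). Filled symbols passed an adjusted p under 0.05. MAPK3 is above 0 and BRAF below 0 in both lines on the left, and on the right MAPK3 and NRAS lie farthest from 0, at 3.14 and -2.69.

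The study had its own rule for calling a gene lower, which was rerun on the counts of the 16 libraries. The study's methods name a further U251 replicate, not analysed here, so the calls below need not be those of the study. Each control library was set against each miR-137 library by Fisher's exact test, and a call needed an odds ratio above 2 with an adjusted p below 0.001 in each of these 4 pairings. Such a test sees reads and not the spread between replicates. In U251 RNASeq 8.35% of 20314 genes were called in one direction or the other. NRAS was called lower, as were 2.21% of genes, with odds ratios of 2.13 to 2.18. NF1 was called higher by the mirrored rule, as were 6.14%, with inverse odds ratios of 2.11 to 3.40. With library totals scaled by TMM factors the calls over all genes went from 448 lower and 1248 higher to 793 and 793. NRAS was still called and NF1 was not. None of the 7 met either rule in the other 3 experiments, where 4.95%, 4.39% and 8.24% of genes were called in U251 RIPSeq, U343 RNASeq and U343 RIPSeq. SRC came closest, as lower in 3 of 4 pairings both in U251 RIPSeq (odds ratios of 1.73 to 4.80) and in U343 RNASeq (1.77 to 2.94).

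Other genes of the pathway were counted from lists that do not hold the 7. In U251 RNASeq, 29.0% of all genes were called lower and 28.7% higher, and the counts of the core, adaptor and SRC lists lie near these shares. Of 11 core genes from RAS to ERK, 4 fell and 3 rose. MRAS, a RAS-related GTPase, fell by 1.35 ± 0.25 (adjusted p = 0.000401), and MAP2K1, the kinase MEK1, rose by 1.41 ± 0.14 (adjusted p = 2.73e-06). Of 12 adaptors and exchange factors tested, 4 fell and 3 rose. PTPN11, the phosphatase SHP2 that promotes RAS activation, fell by 1.85 ± 0.15 (adjusted p = 2.69e-07), and RASGRP3, another RAS exchange factor, rose by 3.63 ± 0.25 (adjusted p = 7.25e-08). Among 10 GTPase-activating proteins and other brakes, 6 rose and 1 fell, with a median log2 fold change of 0.83 against 0.02 over all genes. PEBP1, an inhibitor of RAF, fell by 0.35 ± 0.14 (adjusted p = 0.0449). In the list of transcripts known to respond to ERK activity, 9 of 13 rose in edgeR and none was called lower, with a median of 0.78. The highest was SPRY4, a feedback inhibitor of the route, at 2.10 ± 0.13 (adjusted p = 4.21e-08). The SRC family and its partners split, 3 up and 2 down of 9 tested, with BCAR1, a SRC substrate, at 0.87 and FRK, a SRC-related kinase, at -1.33.

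In U343 RIPSeq, 28.5% of all genes were called higher and 27.8% lower, and several of the list counts lie near these shares. Of the brakes 5 of 10 rose and 1 fell, with PEBP1 at -0.30 ± 0.10 (adjusted p = 0.0369). Of the ERK-responsive transcripts 6 of 13 rose and 2 fell. SPRY4 rose by 1.90 ± 0.20 (adjusted p = 0.000172), and PHLDA1 fell by 0.94 ± 0.13. In the core list 4 of 11 rose and 3 fell, and RRAS2, a RAS-related GTPase, was the highest at 1.25 ± 0.11. PTPN11 fell here too, by 0.87 ± 0.10 (adjusted p = 0.000308), while the adaptor SHC1 rose by 1.32 ± 0.10, and the adaptor list as a whole had 2 lower and 3 higher of 12. In the SRC list 5 of 8 rose and 2 fell, with the SRC family kinase YES1 at -0.44 ± 0.09 and FGR at 2.70 ± 0.56.

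In the other experiments few of these genes passed. In U251 RIPSeq, where 1.21% of 14087 genes passed, it was RASGRP3 alone, at 3.25 ± 0.28 (adjusted p = 0.0270). Without control replicate 1, 8 of 13 ERK-responsive transcripts rose and 5 fell there, where 32.8% of all genes were higher and 35.3% lower. Without control replicate 2, 9 rose and 3 fell, where 40.2% were higher and 34.2% lower. In U343 RNASeq, where 11.7% of all genes were lower and 8.31% higher, 2 core genes rose, led by RRAS at 1.09 ± 0.16, and 2 brakes, led by SPRED3 at 1.38 ± 0.25. The adaptor GRB2 rose by 1.03 ± 0.12 and the adaptor CRKL fell by 0.85 ± 0.10. FYN, a SRC family kinase, rose by 1.17 ± 0.10 and PXN (paxillin) fell by 0.38 ± 0.09. Of the ERK-responsive transcripts 1 of 13 passed, EPHA2 at 1.00 ± 0.14. Without replicate 1, 6 of these 13 rose and 3 fell, where 39.6% of all genes passed, and without replicate 2, 2 rose and 4 fell, where 37.7% passed. In the interferon response list 12 of 12 genes rose in U251 RNASeq and in U251 RIPSeq and 11 of 12 in U343 RIPSeq. In U343 RNASeq 0 of 12 passed in edgeR with both libraries and 11 of 12 rose without replicate 1, while 3 rose and 4 fell without replicate 2. The part of this response in the changes of the pathway genes was not tested.

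**Figure D5:**
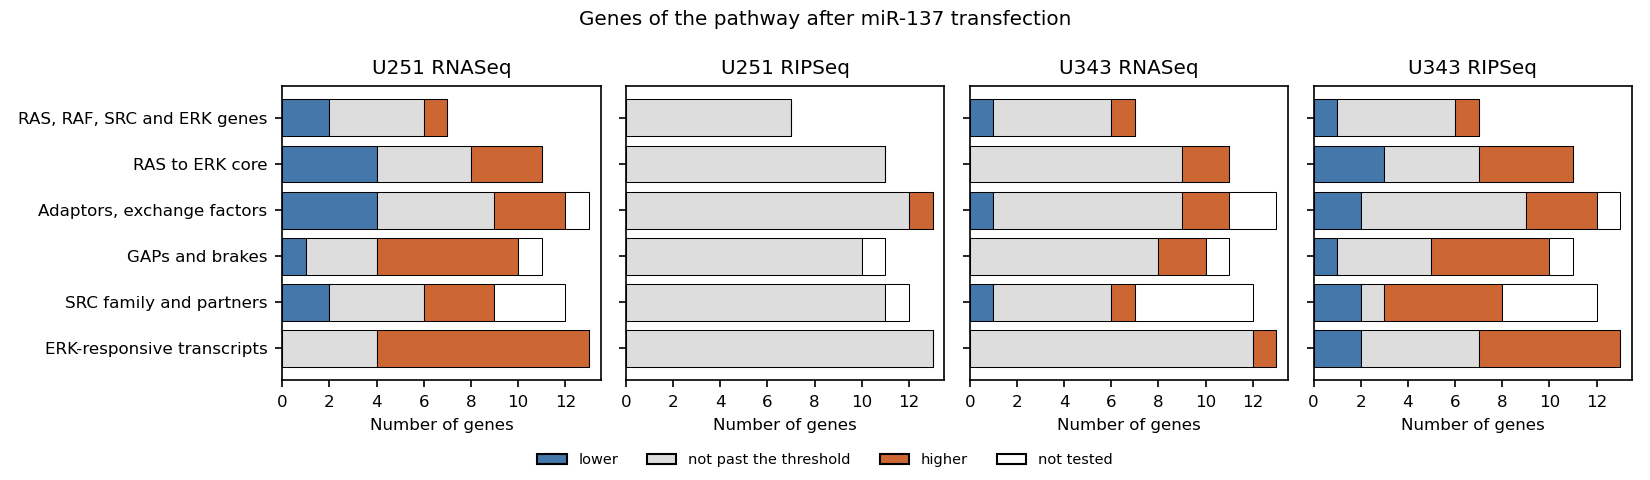
Number of genes in each list that were lower (blue), not past the threshold (grey), higher (orange) or not tested (white) with miR-137, in each experiment (edgeR, adjusted p under 0.05). In U251 RNASeq 9 of 13 ERK-responsive transcripts and 6 of 10 tested brakes were higher.

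The genes whose levels moved most like each of the 7 were sought over the 16 libraries among 11625 genes, after centring each experiment. NRAS was most like CREBL2 (Pearson's r = 0.99) and C19orf2 (0.98). NF1 was most like NFAT5 (0.98) and SIN3A (0.96), SOS1 like N4BP2L2 (0.97) and DMTF1 (0.94), and HRAS like RPL18 (0.97) and TRAPPC2L (0.96). SRC was most like ADCY3 and MCM3AP (0.96 each), BRAF like LRPPRC and LOX (0.95 each), and MAPK3 like ECH1 (0.90) and SCNN1A (0.89). These are descriptions. Those of SOS1, SRC and HRAS lean on U251 RIPSeq, which held 67.9%, 64.6% and 58.0% of their squared deviation. It held 43.8% for NF1 and 38.5% for MAPK3. For NRAS the largest share was in U251 RNASeq (48.6%, against 44.1% in U251 RIPSeq). For BRAF it was in U343 RIPSeq (43.1%, against 37.4% in U251 RIPSeq).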

How the data were processed

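The labels place the 16 RNASeq and RIPSeq libraries in 8 groups. Mapping was done by the authors with RMAP on hg18, against RefSeq genes whose isoforms had been merged into a super-transcript, and the deposited values are raw read counts. The methods also name a further U251 replicate, not analysed here. SLC35E2 stands on 2 lines of the U251 tables, of which the first was kept. U251 libraries were made with random hexamers, EpiScript and Nextera, and U343 libraries with the TotalScript kit.

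Here the counts were tested with edgeR 4.0.16 (TMM, filterByExpr, quasi-likelihood test, Benjamini-Hochberg adjustment over all genes tested, threshold 0.05) in R 4.3.3, and the rule of the study was rerun with scipy 1.17.1, two-sided. A standard error is the log2 fold change divided by the square root of F. Alternatives were DESeq2 1.42.0, upper-quartile normalization, other filters, a replicate block, a joint fit of each line and each library left out. The gene lists without libraries that stood apart were added after seeing the data. The edgeR fits of miR-137 against control and of the interaction with assay were tested on simulated counts in both lines. That check required the direction and median size of large planted changes, and set no limit on missed or false calls. The study's rule was tested on simulated counts for U251 RNASeq, and the other comparisons and alternatives were not. Likeness used log2 CPM with a prior count of 2 and genes with at least 50 reads on average. All 7 genes are given in every comparison, and of each other list the gene with the lowest and the highest change among those that passed. Some genes that this rule names are not reported here. The 7 genes and the lists were chosen with earlier results of these data known. Counting error is smallest for genes with many reads, and reads amplified by PCR are not independent molecules.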

Additional observations from a re-analysis of the deposited data

Results flagged for a closer look

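The response to miR-137 in total RNA differed between U343 and U251 for 3 of the 7 genes, by the edgeR test of the interaction. NRAS had a difference of 1.84 ± 0.19 on the log2 scale (adjusted p = 0.00111): both miR-137 libraries were below both controls in U251 and above them in U343. It lay between 1.66 and 1.99 in the fits that left out a library and passed in all 8. HRAS had a difference of 0.90 ± 0.24 (adjusted p = 0.0295), with the same directions as NRAS in all libraries. SRC had a difference of -1.07 ± 0.30 (adjusted p = 0.0316), with a fall in U343 and overlapping groups in U251. The calls of HRAS and SRC were lost in 5 of 8 fits that left out a library, namely those without U251 control replicate 2, either U251 miR-137 library or either U343 control, where HRAS ranged from 0.63 to 1.05 and SRC from -1.21 to -0.84. The lines also differed in library kit, and its part cannot be told apart from that of the line.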

How the results depend on the processing

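Under the alternatives, 873 of 1028 values of the 7 genes kept their direction and their side of the threshold, 74 newly passed it, 32 no longer did and 49 changed sign. Why they changed was not tested. Precision is limited by 2 libraries a group, by few reads on MAPK3 in U251 RNASeq, and by the U251 RIPSeq controls and the U343 RNASeq miR-137 pair. Without a library, an arm has 1 library, which is assumed to vary like the other arm.

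With upper-quartile normalization the median change over all U251 RNASeq genes went from 0.02 to 0.16 on the log2 scale, and SRC turned to 0.0421. It also turned HRAS to -0.0588, BRAF to -0.0702 and SOS1 to -0.0266 in the U251 interaction with assay, SOS1 to 0.0168 in the RIPSeq interaction with line and SRC to -0.0189 for PABP-bound against total RNA in U343. With no filter, BRAF was -0.0262 in U251 RNASeq, and SRC was -0.00413 in the last of these comparisons. At 50 reads or more, SRC there was -0.00506, and SOS1 was 0.0165 in the RIPSeq interaction with line. With TMM-scaled totals the study's rule gave median odds ratios of 1.06 for SRC and 1.14 for MAPK3 in U251 RNASeq.

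The joint fit of a line called 2951 genes in U251 RNASeq instead of 7529, 2355 in U251 RIPSeq instead of 170 and 5033 in U343 RNASeq instead of 3018. DESeq2 called 1123 in U251 RIPSeq (534 lower and 589 higher, against 37 and 133 in edgeR), 704 for the interaction with assay in U251 instead of 19, 400 for that in U343 instead of 1, 1852 for the RIPSeq interaction with line instead of 524 and 3615 for PABP-bound against total RNA in U251 instead of 1855. With no filter these counts were 59, 32, 2 and, for PABP-bound RNA in U251, 100. The interaction with assay gave 9 in U251 with upper-quartile normalization (3 lower and 6 higher, from 4 and 15, with the median over all genes moved from -0.04 to -0.18), and 0 in U343 at 50 reads or more, where 2535 genes had an unadjusted p under 0.05 in edgeR and DESeq2 called 400. An odds ratio over 1.5 in the study's rule gave 3396 genes in U251 RNASeq, 2115 in U251 RIPSeq, 2053 in U343 RNASeq and 3437 in U343 RIPSeq, from 1696, 1006, 906 and 1699.

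The replicate numbers are shared by the groups, but 2 pairs cannot show that they pair the samples. The control difference correlated with the miR-137 difference over genes at r = 0.03 and 0.04 in U251 RNASeq and RIPSeq and 0.14 and 0.28 in U343. A replicate block called 802 genes in U251 RIPSeq, 119 for the RIPSeq interaction with line and 4036 for PABP-bound against total RNA in U251. For the interaction with assay the block called 0 in both lines in edgeR, where 2243 and 2926 genes had an unadjusted p under 0.05 and DESeq2 without the block called 704 and 400. With the block MAPK3 no longer passed in U343 RNASeq (adjusted p = 0.0779), and SRC and SOS1 passed in U343 RIPSeq (adjusted p = 0.0147 and 0.0322). NRAS, BRAF, SRC, NF1 and SOS1 passed for PABP-bound against total RNA in U251 (adjusted p from 0.0121 to 0.0346).

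Without each library in turn, calls for miR-137 ranged from 5840 to 6920 in U251 RNASeq, 141 to 11670 in U251 RIPSeq, 0 to 6147 in U343 RNASeq and 6460 to 7241 in U343 RIPSeq. The 0 were the fits without either U343 RNASeq control, with 2776 and 2675 genes at an unadjusted p under 0.05 in edgeR. The interaction with assay ranged from 0 to 8870 in U251 and 0 to 3113 in U343, that with line from 1877 to 5676 in RNASeq and 2 to 9113 in RIPSeq, and PABP-bound against total RNA from 227 to 11168 in U251 and 5175 to 5984 in U343. The study's rule ranged from 1117 to 3671 in U251 RIPSeq and 1094 to 1765 in U343 RNASeq.

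Values that changed sign without a library had these ranges. For miR-137 they were -0.29 to 0.11 for SRC and -0.12 to 0.17 for BRAF in U251 RNASeq, and -0.17 to 0.0863 for HRAS in U343 RIPSeq. In U251 RIPSeq they were -0.48 to 1.37 for NRAS, -0.83 to 0.33 for HRAS, -0.19 to 0.60 for BRAF and -0.15 to 0.99 for SOS1. For the interaction with assay in U251 they were -0.27 to 1.01 for HRAS, -0.16 to 0.51 for BRAF, -0.70 to 0.40 for NF1 and -0.26 to 0.76 for SOS1, and in U343 -0.41 to 0.25 for NF1 and -0.27 to 0.18 for SOS1. For the interaction with line they were -0.15 to 0.32 for SOS1 in RNASeq, and in RIPSeq -1.37 to 0.40 for NRAS, -0.34 to 0.90 for HRAS and -0.66 to 0.40 for SOS1. For PABP-bound against total RNA they were -0.46 to 0.78 for HRAS in U251, and -0.0863 to 0.00597 for HRAS and -0.13 to 0.17 for SRC in U343. Median odds ratios of the rule ranged from 0.757 to 1.03 for SRC and 0.851 to 1.06 for MAPK3 in U251 RNASeq, 0.418 to 1.23 for NRAS, 0.702 to 1.93 for HRAS and 0.715 to 1.01 for BRAF in U251 RIPSeq, and 0.971 to 1.08 for HRAS in U343 RIPSeq.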
